A study of Mus musculus with 2 samples.

Results

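The cells described here are the Slc4a11-positive corneal endothelial cells of the mouse anterior eye segment, the single sheet of cells that lines the back of the cornea. They were 12 of 10399 kept cells in the NC-Foxc2-KO library and 179 of 10369 kept cells in the control library, together 191 of 20768 kept cells and of 22941 deposited cell barcodes. A barcode was kept with at least 1000 unique molecular identifiers (UMIs, each a counted transcript molecule) and at most 8% mitochondrial UMIs. A kept barcode was a member with at least 2 UMIs of Slc4a11 and at least 1 of Cldn10, fewer than 30 of Krt12 and fewer than 5 of Kera per 10000 UMIs, fewer than 10 of Myoc and Chil1 together per 10000 UMIs, and no UMI of Ptprc or Cdh5. The members were thus selected on the measured UMIs of these 8 genes, whose values are given only as a description.

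Droplet-based single-cell RNA sequencing had been run on the dissociated anterior segment with the iris removed, in 1 library per condition, each from the eyes of 4 to 6 mice of mixed strain. The NC-Foxc2-KO mice were Foxc2 flox/flox;Wnt1Cre+, in which Wnt1-Cre acts in the neural crest, and the controls were Foxc2 flox/flox without Cre. Both groups therefore carried the floxed Foxc2 alleles. The labels give an age of 4 weeks and the protocol 3 to 4 weeks, and the NC-Foxc2-KO mice had been chosen for a moderate ocular phenotype. With 1 pooled library per condition there is no replicate, cells are not replicates, and no test was made. Values are UMIs of a gene per 1000000 UMIs summed over a group of cells (CPM), and the ranges in parentheses are exact 95% intervals that cover counting error only.

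The corneal endothelium keeps the stroma clear. It lets fluid leak in from the aqueous humor through loose junctions and returns it by moving bicarbonate, sodium and lactate outward, with Na,K-ATPase, sodium bicarbonate cotransport, carbonic anhydrases and proton-coupled lactate transport as the working parts. The sheet also lays down Descemet's membrane, a thick basement membrane rich in type IV and type VIII collagen. In the mouse it descends largely from neural crest, despite a name that it shares with the lining of vessels.

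The members carried the markers that name the cell type. Of Car3, Npy, Bsg, Col8a2, Col4a3 and Col4a4, none of which the rule used, all 6 had a UMI in 9 of the 12 NC-Foxc2-KO members and in 174 of the 179 control members. Slc4a11, an anion-exchanger family protein that moves protons and is mutated in human corneal endothelial dystrophies, lies on chromosome 2 (130684113 to 130697519, GRCm38). It ranged over 4.47, 14.8 and 24.9 UMIs per 10000 (lowest, median and highest cell) in NC-Foxc2-KO members and over 1.01, 16.7 and 46.1 in control members. Cldn10, a claudin that forms ion-selective pores on chromosome 14 (118787908 to 118875489), ranged over 1.20, 5.73 and 45.1 in NC-Foxc2-KO members and over 1.37, 40.1 and 69.8 in control members. The cells of the libraries overlapped for both genes, with most NC-Foxc2-KO cells low in Cldn10.

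The members held most of the markers' UMIs in the control library. There 82.9% of all Slc4a11 UMIs of kept cells, 64.3% of Cldn10, 89.0% of Car3 and 78.9% of Npy were in the 179 members, which are 1.73% of the kept cells (1.48 to 2.00). In the NC-Foxc2-KO library the 12 members are 0.115% of the kept cells (0.0596 to 0.201), and they held 37.5% of Slc4a11, 7.94% of Cldn10, 53.2% of Car3 and 23% of Npy UMIs. Car3 and Npy, which the rule did not use, were higher in cells with more Slc4a11 UMIs. The 28 NC-Foxc2-KO and 48 control cells with 1 Slc4a11 UMI that met every other condition had a median of 0 for Car3 and for Npy. The 8 control members with 2 or 3 Slc4a11 UMIs had a median of 15.1 Car3 UMIs per 10000, those with 4 to 9 had 61.3, and those with 10 or more had 118. The 8 cells with 2 or 3 had a median of 85.5 for Dcn, a proteoglycan of the corneal stroma, and the 1 NC-Foxc2-KO member with 2 or 3 Slc4a11 UMIs had no Car3 UMI. When cells were instead taken by Car3, Npy and Col8a2, 22 NC-Foxc2-KO and 183 control cells qualified, of which 9 and 174 were members. Of the 13 NC-Foxc2-KO cells that only this second choice took, 9 had no Slc4a11 UMI, and their medians were 8.19 per 10000 for Car3 and 150.1 for Dcn.

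Depth and purity differed between the libraries' members. The NC-Foxc2-KO members held 144561 UMIs with a median of 8547.5 per cell, and the control members held 3422027 with a median of 15887, so values of NC-Foxc2-KO members are far less precise. No UMI in a group allows up to 20.8 CPM in NC-Foxc2-KO members and up to 0.877 CPM in control members. A doublet caller, Scrublet, marked none of the 12 NC-Foxc2-KO members and 7 of the 179 control members, and these were kept. Between the libraries 52 barcodes were shared, 1 of them that of a control member. Foxc2, the targeted gene, had 1 UMI in NC-Foxc2-KO members and 5 in control members. Over all kept cells it had 623 UMIs (6.60 CPM) in NC-Foxc2-KO and 1559 UMIs (13.1 CPM) in control. No source used here says whether the counted 3' end lies in the floxed part, so these counts do not check the labels.

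**Figure D1:**
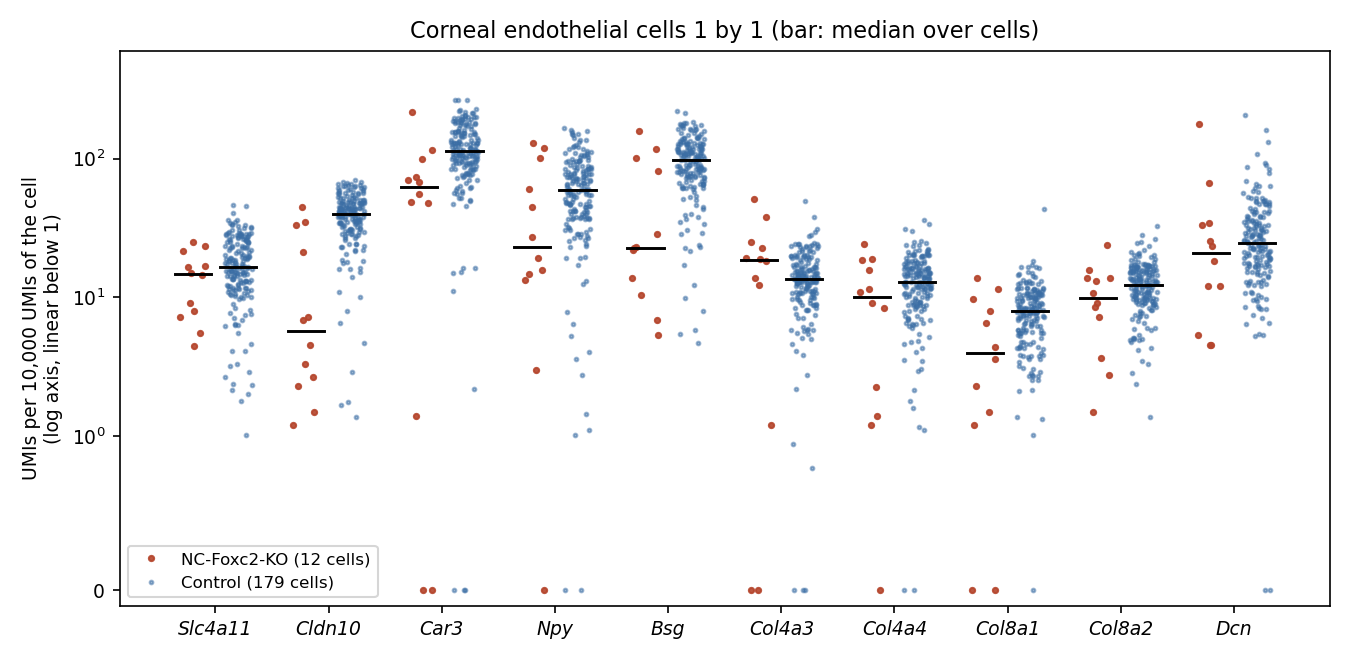
UMIs per 10000 UMIs of each member cell (vertical axis, logarithmic above 1 and linear below) for Slc4a11, Cldn10, Car3, Npy, Bsg, Col4a3, Col4a4, Col8a1, Col8a2 and Dcn, with 12 NC-Foxc2-KO cells (left, red) and 179 control cells (right, blue), each point 1 cell and each bar a median over cells. Median Cldn10 was 5.73 in NC-Foxc2-KO and 40.1 in control cells, and median Bsg was 22.9 in NC-Foxc2-KO and 97.5 in control cells, while median Col8a2 was 9.94 in NC-Foxc2-KO and 12.4 in control cells.

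To find what sets these cells apart, the control members were compared with other cells of the same library gated by their own genes: 2004 Kera cells (stromal keratocytes by that marker), 578 Myoc-Chil1 and 1015 Edn3 cells (meshwork markers), 1314 Krt12 cells (corneal epithelium), 178 Cdh5-Pecam1 cells (vascular endothelium) and 100 Ptprc-C1qa cells (macrophages). Genes were ranked by the ratio of their CPM in members to the highest of these 6 gates. After Slc4a11 itself, the highest ratios belonged to Car9, Slc14a1, Car3, Slc7a3, Npy, Col4a3, Vwde and Col4a4. Car9 is a membrane carbonic anhydrase, Slc14a1 a urea transporter, and Slc7a3 a carrier of cationic amino acids. Car9 had 308 CPM (290 to 327) in members and at most 3.65 CPM in any gate, a ratio of 84.4 (50.9 to 151). Slc14a1 had 402 CPM in members against at most 5.12 CPM. The 30 leading genes further held the secreted proteins Mia, Slit2, Fgf10, Spock2 and Dkk1, the synapse and nerve-associated genes Glrb, Tenm2, Igsf9b and Aplp1, the tendon transcription factor Scx, and the fatty acid elongase Elovl7. Their ratios to the highest gate ran down to 5.83 for Dkk1. The gate with the highest level outside the members was the Myoc-Chil1 gate for most of these genes, and the Kera gate for Frem3, Tmem108, Elovl7, Mt3, Igsf9b and Aplp1.

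**Figure D2:**
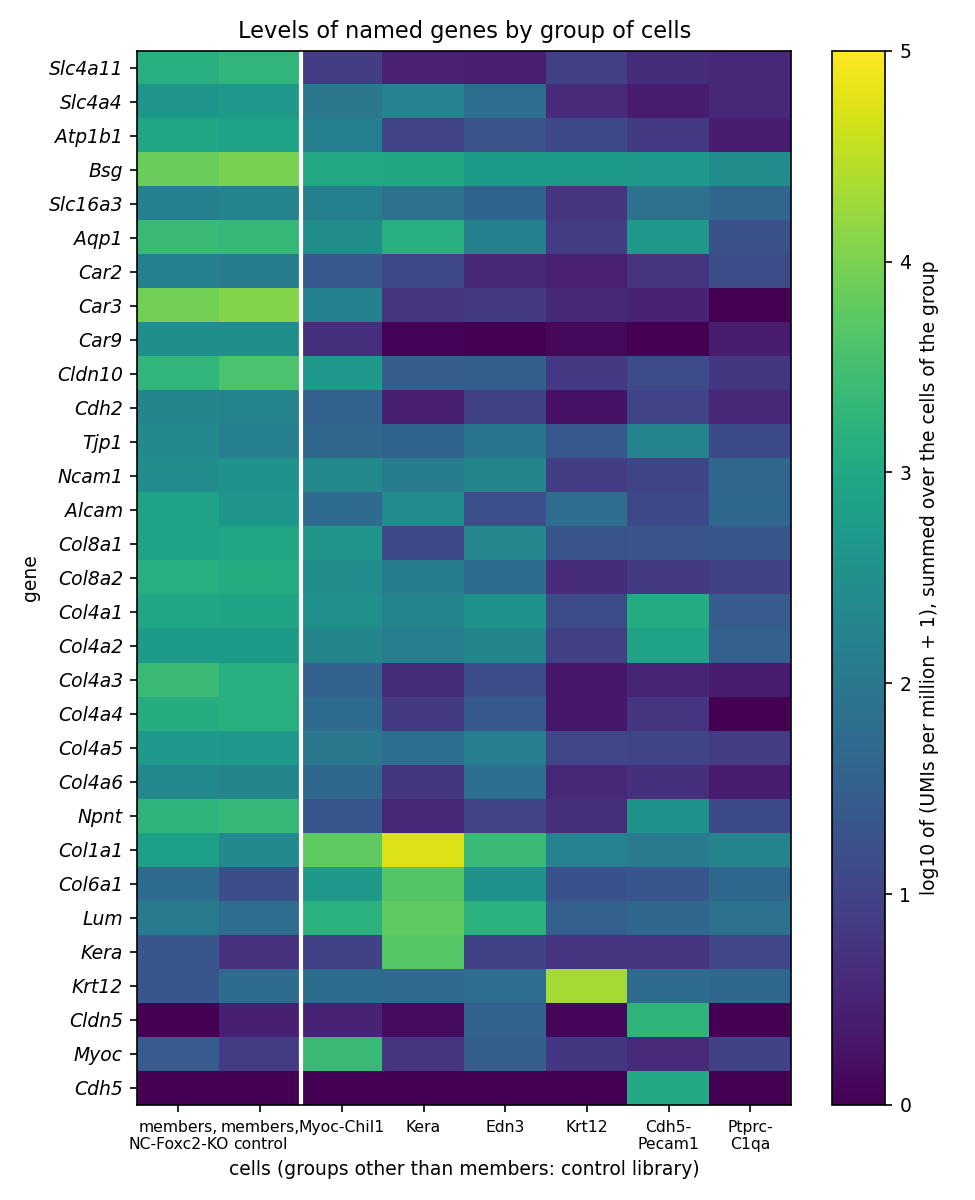
Levels of named genes, 1 per line, as log10 of CPM + 1 summed over each group of cells (color), in NC-Foxc2-KO members, control members and 6 gated groups of other control cells. Slc4a11, Car3, Car9, Col4a3 and Col4a4 were bright in both columns of members and dark elsewhere, Aqp1 and Col4a1 were shared with Kera or Cdh5-Pecam1 cells, and Col1a1 reached 54112 CPM in Kera cells against 650 and 240 CPM in NC-Foxc2-KO and control members.

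Free RNA puts stray UMIs into any droplet, so detection was also counted with each cell thinned to 1000 UMIs. Car3 then had a UMI in 97.2% of control members, against 0.544% of red blood cells (at least 5000 hemoglobin UMIs per 10000), 0.250% of Kera cells and 6.75% of Myoc-Chil1 cells. Npy was seen in 95.5% of members, against 0.109% of red blood cells, and Col4a3 in 71.5% against 0.109%. Unthinned, the median depths of these groups were 15887 UMIs in members, 4298 in red blood cells, 15892 in Kera cells and 6775.5 in Myoc-Chil1 cells.

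Genes of fluid transport make up the first group. Against all other control cells, 13 of the 22 pump and ion transport genes with at least 20 CPM in either group were at least 2-fold higher in members and 4 were at least 2-fold lower, counting Slc4a11, which the rule used. Over all 6374 genes so measured, 15.7% were that much higher (1002 genes) and 12.2% that much lower (777 genes). Scaled also by the median gene ratio, these were 628 and 991 genes. The median log2 ratio was 1.51 for the pump list and 0.31 for all genes, and this upward shift of all genes applies to every ratio against all other cells given here. Bsg (basigin, the chaperone that brings lactate transporters to the membrane, on chromosome 10, 79704491 to 79711969) had 9844 CPM (9740 to 9950) in members, 698 CPM in all other cells and at most 1018 CPM in any gate. In single cells it ranged over 5.37, 22.9 and 159 per 10000 in NC-Foxc2-KO and 4.66, 97.5 and 219 in control members. Its partner transporters Slc16a3 and Slc16a1 had 174 and 63.4 CPM in members against 49.4 and 20.1 CPM in all other cells. The lactate carriers were thus higher in members by 3.51 and 3.15 times, and their chaperone by 14.1 times.

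Of the Na,K-ATPase, the beta subunit gene Atp1b1 set members apart. Atp1b1, the subunit that carries the pump to the membrane (chromosome 1, 164437109 to 164458355), had 811 CPM in members and 31.7 CPM in all other cells, a ratio of 25.5 (24.3 to 26.8). Slc4a4, the sodium bicarbonate cotransporter, had 484 CPM in members and 68.5 CPM in all other cells, with 161 CPM in Kera cells. Aqp1, the water channel of this tissue, had 2141 CPM in members and 490 CPM in all other cells but also 1392 CPM in Kera cells. The epithelial water channels went the other way: Aqp5 had 9.35 CPM and Aqp3 4.09 CPM in members, against 833 and 209 CPM in all other cells. Slc12a2, which brings chloride into secreting cells, had 32.7 CPM in members against 78.5 CPM. The fourth lower gene was Slc9a3r1, a scaffold of the sodium-proton exchanger, with 16.1 CPM against 37.0 CPM.

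Carbonic anhydrases turn carbon dioxide and water into bicarbonate and protons. Of 16 listed, 4 could be measured at 20 CPM, and Car2, Car3 and Car9 were higher and Car13 lower in members. Car3, a cytosolic form best known from muscle and fat (chromosome 3, 14863512 to 14872523), had 12045 CPM (11929 to 12162) in members, 44.1 CPM in all other cells and at most 160 CPM in any gate. In single cells Car3 ranged over 0, 62.2 and 219 UMIs per 10000 in NC-Foxc2-KO members and over 0, 114 and 267 in control members, with 10 of 12 and 176 of 179 cells holding a UMI. Car2, the fast cytosolic form, had 129 CPM in members and 12.3 CPM in all other cells, with 96 of 179 control members holding a UMI. Car9 had a UMI in 9 of 12 NC-Foxc2-KO and 165 of 179 control members.

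The members also stood out in sugar breakdown. Of 23 glycolysis genes measured, 19 were at least 2-fold higher than in all other cells and 0 lower, with a median log2 ratio of 1.51. The other 4, Gapdh, Ldha, Ldhb and Pfkfb3, were between 1.56 and 1.99 times the level of all other cells. Slc2a3, a glucose carrier, was 12 times higher, Pfkp, a phosphofructokinase, 5.91 times, the aldolase Aldoc 5.87 times and the mitophagy receptor Bnip3 4.89 times. Slc2a1, the main glucose carrier, had 1128 CPM in members and 382 CPM in all other cells, with 939 CPM in Myoc-Chil1 cells. Pgk1 had 840 CPM against 296 CPM, and Pkm, the last enzyme before pyruvate, 1449 CPM against 518 CPM. Slc2a1, Slc16a1 and Slc16a3 stand in both this list and the pump list. By contrast, 1 of 48 nuclear genes of oxidative phosphorylation was 2-fold higher (Ndufa1, 344 CPM against 155 CPM) and 0 lower, with a median log2 ratio of 0.42, near that of all genes. Against Kera cells 18 of 23 glycolysis genes were higher, where 19.9% of all 6173 genes were higher and 9.22% lower. Against Myoc-Chil1 cells 5 of 23 were higher, where 14.5% of 6407 genes were higher and 13.6% lower, while 16 of 48 oxidative phosphorylation genes were higher.

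Because Car9 and several glycolysis genes are classic targets of hypoxia-inducible factors, the letters ACGTG, the core those factors bind, were searched on both strands of promoters (RefSeq, GRCm38.p6, 250 bases before to 50 after each start). The core is also part of CACGTG, which other factors bind. It occurred in 19.6% of all 32851 promoters and in 48.6% of the 37 promoters of glycolysis genes. Counted by gene, 21.8% of all 27025 genes with a promoter had it, against 15 of the 24 glycolysis genes and 7 of the 21 leading genes. In the pump list 8 of 27 genes had it, in the Descemet list 2 of 26 and in the oxidative phosphorylation list 10 of 37. A match is a description of letters, and binding was not measured. Below are the promoters of Car9, the gene next after Slc4a11 in the ranking, and of Pgk1 and Slc2a1, 5′ to 3′ on the gene's strand, with the match in capitals (CACGT where it lies on the opposite strand). They lie at chr4:43506776-43507075 (plus strand), chrX:106186850-106187149 (plus strand) and chr4:119108495-119108794 (plus strand), with matches 18 bases before the start in Car9, 150 and 131 in Pgk1, and 36 in Slc2a1.
Car9: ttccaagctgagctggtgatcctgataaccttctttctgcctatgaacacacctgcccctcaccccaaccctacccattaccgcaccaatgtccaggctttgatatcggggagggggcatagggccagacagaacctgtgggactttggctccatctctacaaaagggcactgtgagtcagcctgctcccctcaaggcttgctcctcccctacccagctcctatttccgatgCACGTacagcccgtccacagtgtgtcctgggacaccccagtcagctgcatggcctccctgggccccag
Pgk1: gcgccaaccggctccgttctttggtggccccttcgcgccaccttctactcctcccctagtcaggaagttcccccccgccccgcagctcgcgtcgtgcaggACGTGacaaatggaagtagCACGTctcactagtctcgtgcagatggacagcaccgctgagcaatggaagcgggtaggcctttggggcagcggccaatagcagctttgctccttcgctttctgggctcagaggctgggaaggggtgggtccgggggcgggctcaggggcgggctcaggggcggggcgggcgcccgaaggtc
Slc2a1: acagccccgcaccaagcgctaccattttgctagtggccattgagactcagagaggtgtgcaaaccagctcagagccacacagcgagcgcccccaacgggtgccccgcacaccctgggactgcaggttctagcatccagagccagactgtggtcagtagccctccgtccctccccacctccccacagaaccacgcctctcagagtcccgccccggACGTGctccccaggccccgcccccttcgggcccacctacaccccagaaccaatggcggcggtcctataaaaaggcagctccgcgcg

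**Figure D3:**
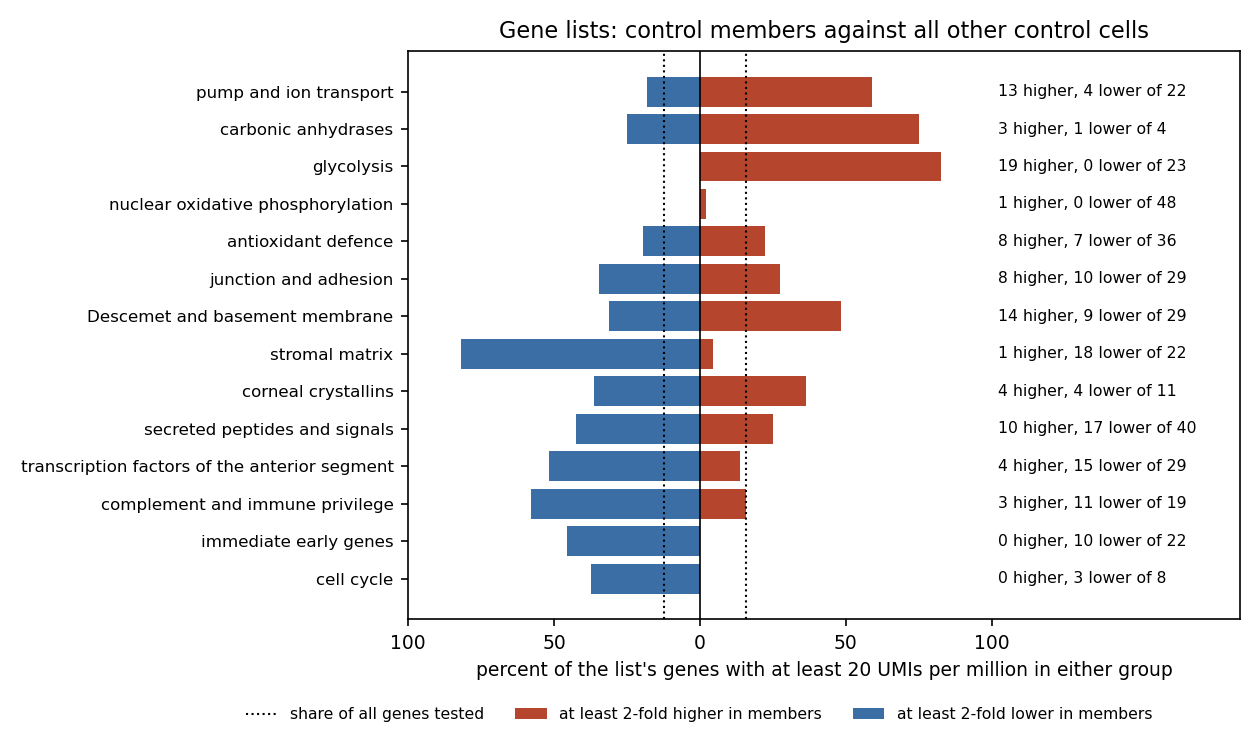
Share of each list's measured genes (horizontal axis, percent) that were at least 2-fold higher (right, red) or lower (left, blue) in control members than in all other control cells, with the share over all genes as dotted lines at 15.7% and 12.2%. Glycolysis had 19 of 23 genes higher and 0 lower, and the stromal matrix 1 of 22 higher and 18 lower.

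Descemet's membrane genes split by the collagen chain. Of 29 measured genes of Descemet's and basement membranes 14 were higher and 9 lower in members than in all other cells, with a median log2 ratio of 0.79. All 6 type IV collagen chains and both type VIII chains were among the higher. Col4a3 and Col4a4, which join with Col4a5 in the network of kidney and eye basement membranes, were low in every other gate. Col4a3 had 1414 CPM (1374 to 1454) in members, 11 CPM in all other cells and at most 37.0 CPM in any gate. Col4a4 had 1383 CPM (1344 to 1423) in members, 15.8 CPM in all other cells and at most 55.5 CPM. Per cell Col4a3 ranged over 0, 18.5 and 51.6 per 10000 in NC-Foxc2-KO and 0, 13.6 and 49.7 in control members, and Col4a4 over 0, 10.0 and 24.2 and over 0, 12.9 and 36.2. Col4a1 and Col4a2, the chains of all basement membranes, had 837 and 524 CPM in members but 1217 and 759 CPM in Cdh5-Pecam1 cells. Col4a5 had 458 CPM and Col4a6 184 CPM in members, against 51.2 and 14.9 CPM in all other cells.

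Col4a3 and Col4a4 lie head to head on chromosome 1, Col4a3 from 82586921 to 82722059 on the plus strand and Col4a4 from 82448423 to 82586849 on the minus strand, so that 72 bases part their starts. The stretch across both starts is printed because both genes had their highest level in the members. It is the Col4a4 promoter at chr1:82586800-82587099 (minus strand, 63.3% G and C), with its ACGTG match, 84 bases before the Col4a4 start, in capitals. By these positions the match lies beyond the 72 bases between the starts, just inside Col4a3.
Col4a4: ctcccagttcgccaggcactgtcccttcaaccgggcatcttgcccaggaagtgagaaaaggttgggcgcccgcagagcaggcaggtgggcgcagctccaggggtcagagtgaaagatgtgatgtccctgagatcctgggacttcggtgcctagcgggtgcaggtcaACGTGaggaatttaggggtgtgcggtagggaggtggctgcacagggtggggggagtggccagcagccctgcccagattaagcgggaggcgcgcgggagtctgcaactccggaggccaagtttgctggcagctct

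The type VIII chains, which form the hexagonal lattice of Descemet's membrane, had 890 CPM (Col8a1) and 1225 CPM (Col8a2) in members against 67.7 and 77.7 CPM in all other cells. Col8a1 had 435 CPM in Myoc-Chil1 cells and Col8a2 280 CPM, so the nearest gate lay 2.05 and 4.37 times lower. Col8a2, mutated in an early-onset human endothelial dystrophy, had a UMI in all 12 NC-Foxc2-KO and all 179 control members. Npnt (nephronectin, an integrin ligand of basement membranes, chromosome 3, 132881745 to 132950291) had 2126 CPM in members and 24.7 CPM in all other cells, with 365 CPM in Cdh5-Pecam1 cells. Among the lower genes were Sparc with 5042 CPM in members against 11290 CPM, and Tgfbi, the matrix protein of stromal dystrophies, with 7.01 CPM against 237 CPM. Of the 22 stromal matrix genes 18 were lower and 1 higher, with a median log2 ratio of -3.43. Col1a1 had 240 CPM in members and 17488 CPM in all other cells, Col6a1 14.6 against 1503 CPM and Lum 60.2 against 2112 CPM. The gene that was higher was Ogn (osteoglycin) with 394 CPM against 133 CPM, and Kera, in the same list, was set low by the rule. Dcn had 2813 CPM in members, with 24.8 per 10000 in the median cell and up to 207.

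Junction genes showed no common direction: 8 of 29 measured were higher and 10 lower, with a median log2 ratio of 0.27. The higher ones besides Cldn10, which the rule used, were Cdh2 (N-cadherin, 172 CPM in members against 7.86 CPM), Tjp1 (ZO-1, 145 against 42.7 CPM), Alcam (417 against 116 CPM), Ncam1 (360 against 99.9 CPM), Itga3, Jam2 and Nectin2. The lower ones were largely epithelial or vascular, such as Cdh1 (E-cadherin, 3.21 CPM in members against 37.2 CPM), Cldn7 (27.2 against 255 CPM), Cldn4 and Cldn5. Against Kera cells 14 of 23 junction genes were higher and 1 lower. Gja1, the gap junction protein connexin 43, had 247 CPM in members and 181 CPM in all other cells, a ratio of 1.36 that misses the fold used.

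Transcription factors of the anterior segment were more often lower than in all other cells: 15 of 29 measured were lower and 4 higher. Over all genes 12.2% were lower and 15.7% higher. Against Kera cells 4 of 19 were lower and 6 higher, where 9.22% of all genes were lower and 19.9% higher. Against Myoc-Chil1 cells 17 of 26 were lower and 2 higher, where 13.6% were lower and 14.5% higher. Among those higher than in all other cells were Pou3f3 (213 CPM in members against 17.8 CPM), Lmx1b (80.9 CPM, 4.05 times the level of all other cells) and Tfap2b (182 against 59.0 CPM). Lmx1b acts in the development of the anterior segment, and Tfap2b in mouse neural crest. Foxc1, the partner of Foxc2, had 104 CPM in members and 93.6 CPM in all other cells, with a UMI in 125 of 179 control members. Pax6 had 13 UMIs in all, and Pitx1, Pitx3, Six3 and Sox10 had none, which allows up to 0.877 CPM. Of 8 measured genes of human endothelial dystrophies, 3 were higher (Slc4a11, Col8a2 and Atp1b1) and 2 lower, and Tcf4 and Zeb1 were at 1.69 and 0.65 times the level of all other cells.

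Secreted signals were more often lower than higher in members, with a few genes far higher. Of 40 measured 10 were higher and 17 lower, where 15.7% of all genes were higher and 12.2% lower. Against Myoc-Chil1 cells 10 of 41 were higher and 22 lower, and against Kera cells 16 of 31 were higher and 6 lower. The genes named next are among the higher ones. Npy, the neuropeptide Y of sympathetic nerves and brain (chromosome 6, 49822710 to 49829507), had 6650 CPM (6563 to 6736) in members, 52.4 CPM in all other cells and at most 155 CPM in any gate. Per cell it ranged over 0, 23.2 and 130 per 10000 in NC-Foxc2-KO and 0, 59.6 and 166 in control members, with a UMI in 11 of 12 and 177 of 179. Fst, which binds activin, had 616 CPM in members against 70.2 CPM, Slit2, a guidance cue, 385 against 7.71 CPM, and Fgf10 155 against 2.92 CPM. Dkk1, an inhibitor of Wnt signaling, had 230 CPM in members against 4.11 CPM, in 101 of 179 cells and up to 76.2 per 10000 in 1 cell. The Npy promoter at chr6:49822460-49822759 (plus strand, 68.0% G and C) is shown because Npy marked nearly every member, with its GGGCGG match (a GC box, searched on both strands and found in 35.7% of all promoters), 95 bases before the start, in capitals.
Npy: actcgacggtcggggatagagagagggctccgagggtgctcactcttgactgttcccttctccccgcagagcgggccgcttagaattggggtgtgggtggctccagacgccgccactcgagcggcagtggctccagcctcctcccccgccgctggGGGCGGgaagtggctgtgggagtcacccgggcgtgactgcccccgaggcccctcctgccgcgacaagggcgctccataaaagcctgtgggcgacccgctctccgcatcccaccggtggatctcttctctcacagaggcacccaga

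Genes that guard against oxidation went in both directions, and complement and immune genes were more often lower. Over all genes measured 15.7% were higher and 12.2% lower. Of 36 antioxidant genes measured 8 were higher and 7 lower: Hmox1 (heme oxygenase, 3584 CPM in members against 1114 CPM), Prdx5 (2112 against 615 CPM), Txnrd2 (mitochondrial thioredoxin reductase, 117 against 7.37 CPM), Gclc, Sod3, Srxn1, Prdx2 and Prdx3 were the higher ones. Of 19 complement and immune genes 11 were lower and 3 higher, with a median log2 ratio of -1.04. The 3 higher ones were the complement brakes Cd55 and Cd59a (7.23 and 6.87 times) and Clu (clusterin, 1749 CPM against 354 CPM). Cryab, a small heat shock protein that serves as a crystallin in the lens, had 9603 CPM in members and 1443 CPM in all other cells, while Aldh3a1, the corneal crystallin of epithelium and stroma, had 123 CPM against 3968 CPM. Of 16 keratins and filaments measured 12 were lower and 1 higher, Krt18, with 503 CPM in members against 71.8 CPM.

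Stress and growth response genes filled much of the low end. The 10 genes with the smallest ratio to the lowest gate were Cebpb, Ier5, Cebpd, Iqgap1, Cd9, Nfkbia, Jun, Ier2, Sgk1 and Dusp1, from 0.303 for Cebpb to 0.694 for Dusp1. Cebpb, a stress and inflammation factor, had 146 CPM in members and at least 482 CPM in every gate. Of 22 immediate early genes 10 were lower than in all other cells and 0 higher, and 16 of 23 were lower than in Myoc-Chil1 cells, but 0 of 22 were lower and 3 higher than in Kera cells. Of 8 cell cycle genes measured 0 were higher and 3 lower, and Mki67, a mark of dividing cells, had 4 UMIs in 4 of 179 control members and 0 in NC-Foxc2-KO members.

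The nearest cells by level were those of the Myoc-Chil1 and Kera gates. Across 8384 genes Pearson's r of log levels with control members was 0.82 for Myoc-Chil1, 0.81 for Kera, 0.75 for Edn3, 0.67 for Krt12, 0.60 for Cdh5-Pecam1 and 0.50 for Ptprc-C1qa cells, a description in which all groups share 1 library. Against the vascular endothelial cells, which share the name endothelium, 21.2% of 6951 genes were higher and 22.1% lower in members. All 17 vascular markers measured were lower, counting Cdh5 and Pecam1, which chose the vessel cells, with a median log2 ratio of -7.39, and Tek, Esam, Vwf, Sox17, Sox18 and Lyve1 had no UMI in control members. Erg, a vascular factor, had 54.9 CPM in members, against 132 CPM in Cdh5-Pecam1 cells and 52.4 CPM in Kera cells. Against these vessel cells 21 of 23 glycolysis genes and 20 of 34 antioxidant genes were higher in members and 12 of 18 pump genes were higher with 0 lower. Against Kera cells 18 of 21 stromal matrix genes were lower in members, and 20 of 22 against Myoc-Chil1 cells. Of 21 pump genes measured in each comparison, 13 were higher and 3 lower than in Kera cells, and 8 higher and 4 lower than in Myoc-Chil1 cells.

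Markers of other cell types were low in members but not absent. The rule capped Krt12, Kera, Myoc and Chil1, so the epithelial, keratocyte and meshwork sums are low in part by construction. Summed over its list, each other type's markers in NC-Foxc2-KO and control members were 138 and 125 CPM for vascular endothelium (12372 CPM in its own gate), 180 and 146 CPM for meshwork (6972 CPM in Myoc-Chil1 cells), and 48.4 and 75.7 CPM for leukocytes (30707 CPM in Ptprc-C1qa cells). In control members 7 of the 18 vascular and 6 of the 13 leukocyte markers had no UMI, Ptprc and Cdh5 by the rule and C1qa, C1qc, Cd3e, Nkg7 and Cd79a besides. Keratocyte markers reached 5914.5 and 5262 CPM, against 139610 CPM in Kera cells, of which Dcn made up 3224 CPM in NC-Foxc2-KO and 2813 CPM in control members. Epithelial markers were 470 and 1164 CPM against 48972 CPM in Krt12 cells, and Krt15 alone had 581 UMIs in 17 control members. Pericyte and smooth muscle markers were 263 CPM in NC-Foxc2-KO and 615 CPM in control members, Schwann cell and melanocyte markers 664 CPM in NC-Foxc2-KO and 50.6 CPM in control members, and lens markers 27.7 CPM in NC-Foxc2-KO and 35.1 CPM in control members. Red blood cell markers were 89.9 CPM in NC-Foxc2-KO and 3863 CPM in control members, with 1 control member at 3032 per 10000, and Hbb-bs varied more across control members than any other gene ranked by variance over mean. The part of such cells in the values above was not tested.

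The control members varied among themselves, also in their markers. After each cell was thinned to 1000 UMIs, variance over mean was 2.87 for Car3, 3.12 for Npy and 2.84 for Bsg. The 10 most variable genes were Hbb-bs (137), Hba-a1 (57.6), Hbb-bt (22.9), the heat shock gene Hspa1a (15.0), Csrp1, Cryab, Jun, Malat1, Ccl2 and Mgp (6.61). Jun had a UMI in 116 of 179 cells, with a median of 0.624 and a highest value of 176 per 10000. Over the 179 cells, which share 1 library, Spearman's rho of the summed immediate early genes was -0.30 with pump genes, -0.35 with Slc4a11 and -0.28 with oxidative phosphorylation genes, and that of Car3 with Npy was 0.39. In counts this sparse such weak values are no finding.

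The comparison of conditions rests on 12 cells. The members' share of kept cells was 0.115% in NC-Foxc2-KO and 1.73% in control. Krt12 cells were 3.39% of kept cells in NC-Foxc2-KO and 12.7% in control, and Kera cells 31.2% in NC-Foxc2-KO and 19.3% in control, so other corneal cells also came in other proportions, and the number in the tissue and the number released by digestion cannot be told apart. Genes were compared with at least 20 UMIs over both groups and at least 200 CPM in the higher. Of 959 such genes 82 (8.55%) were at least 2-fold higher and 62 (6.47%) at least 2-fold lower in NC-Foxc2-KO members.

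Summed over cells, Npy, Col8a2, Car3, Bsg, Col4a3 and Col4a4, markers that the rule did not use, were within 2-fold of control in NC-Foxc2-KO members. Slc4a11 was too, and Cldn10 was at the edge of it. The rule required UMIs of both, so cells without them could not be members, and their ratios only describe cells chosen on them. The sums lean on 1 cell, which held 29.3% of the UMIs of the NC-Foxc2-KO members and 428 of their 993 Npy UMIs. For Bsg, Cldn10 and Npy the median cell lay further from control than the sum, at 22.9 Bsg UMIs per 10000 in NC-Foxc2-KO against 97.5 in control members, 5.73 against 40.1 for Cldn10 and 23.2 against 59.6 for Npy. Npy had 6869 CPM in NC-Foxc2-KO and 6650 CPM in control members, a ratio of 1.03 (0.968 to 1.10). Col8a2 had 1377 CPM in NC-Foxc2-KO against 1225 CPM in control members. Slc4a11 had 1397 CPM in NC-Foxc2-KO against 1915 CPM in control members, a ratio of 0.73 (0.631 to 0.839). Car3 had 8730 CPM against 12045 CPM in control (0.725, 0.685 to 0.767), and Bsg 7104 CPM against 9844 CPM in control (0.722, 0.678 to 0.768). Cldn10 had 1951 CPM in NC-Foxc2-KO against 3919 CPM in control members (0.498, 0.441 to 0.560), and its ratio was 0.67 in Kera cells and 0.392 in Myoc-Chil1 cells of the same libraries. Col4a3 lay above control, with 2297 CPM in NC-Foxc2-KO against 1414 CPM in control members (1.62, 1.45 to 1.82), while Col4a4 had 1266 CPM against 1383 CPM. Atp1b1, Aqp1, Car9, Fst and Slit2 had ratios between 0.933 and 1.11. Summed over the whole list, pump genes had 14485 CPM in NC-Foxc2-KO and 17714 CPM in control members. Bsg alone made up 7104 and 9844 CPM of these sums. Glycolysis genes had 9698 CPM in NC-Foxc2-KO and 13341 CPM in control members. Descemet's and basement membrane genes had 16422 CPM in NC-Foxc2-KO and 17173 CPM in control members.

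Dkk1 had the lowest ratio, with 2 UMIs (13.8 CPM) in NC-Foxc2-KO members against 787 UMIs (230 CPM) in control members, 0.0602 (0.00727 to 0.218). Outside the members it went both ways, with 1 UMI in Myoc-Chil1 cells of the NC-Foxc2-KO library against 162 UMIs in control, 12 UMIs in Kera cells against 45 UMIs in control, and 14 UMIs (3.45 CPM) in Edn3 cells against 4 UMIs (0.611 CPM) in control. Next came, each in NC-Foxc2-KO against control members, the neuropeptide Gal (27.7 against 232 CPM), the glutathione transferase Gsto1 (34.6 against 274 CPM), Spp1 (osteopontin, 55.3 against 262 CPM) and the histone H2afv, followed by Mest, Myl9, Maged2, Acta2 and Gja4. Gsto1, Spp1 and H2afv were also lower in Kera cells of the NC-Foxc2-KO library, at 0.414, 0.438 and 0.402 times control. In Myoc-Chil1 cells these 3 genes were at 0.611, 0.874 and 0.502 times control, and in Edn3 cells at 0.354, 0.715 and 0.465 times. Gal was at 0.692 times control in Kera cells, 0.217 in Myoc-Chil1 cells and 6.09 in Edn3 cells. Among the highest, Lars2, the mitochondrial leucyl-tRNA synthetase, had 712 CPM in NC-Foxc2-KO against 97.6 CPM in control members (7.30, 5.80 to 9.13), and its ratio was 2.32 in Kera, 2.64 in Myoc-Chil1 and 2.72 in Edn3 cells. Others were Gm26917, Tmem267, Runx1, Mid1, Penk, Il11 (844 against 201 CPM), Nav2 and Csf3. The cytokine genes Il11 and Csf3 had ratios of 4.19 and 4.11 in members, but of 0.534 and 0.581 in Myoc-Chil1 cells.

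**Figure D4:**
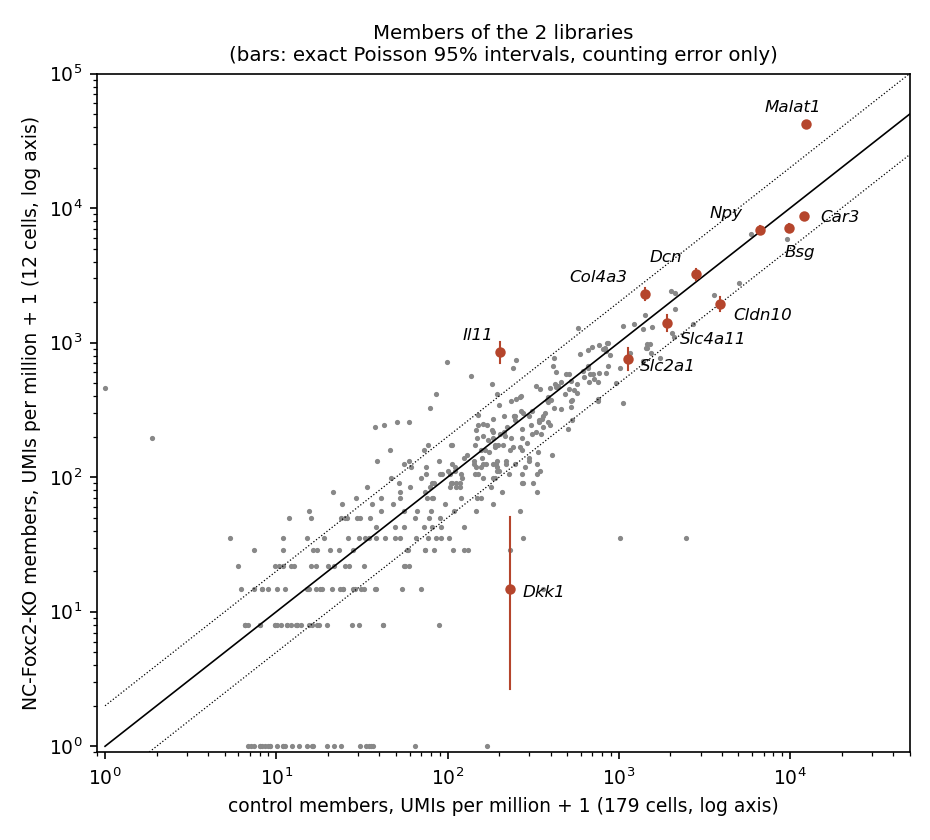
CPM + 1 of the named and listed genes in NC-Foxc2-KO members (12 cells, vertical) against control members (179 cells, horizontal), both on log axes, with lines at equal level and at 2-fold, and exact Poisson 95% intervals for the genes in red. Npy lies on the line of equal level, Malat1 and Il11 lie above the upper line and Dkk1 below the lower line.

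The 12 NC-Foxc2-KO cells were not alike. The 4 deepest, with 13734 to 42338 UMIs, had 21.3 to 45.1 Cldn10 and 82.0 to 159 Bsg UMIs per 10000, within the range of control members, and the deepest alone held 29.3% of the members' UMIs. In 5 of the 12 cells, Malat1, a nuclear RNA, made up 546 to 1518 per 10000, above the highest control member at 514 (median 149), and the others were at or under 356. Malat1 summed to 41955 CPM in NC-Foxc2-KO members and 12410 CPM in control members, a ratio of 3.38 (3.29 to 3.47), while its ratio was 1.42 in Kera cells. Of these 5 cells 4 had 1.20 to 3.29 Cldn10 UMIs per 10000, and the same 4 had 4.34% to 7.01% mitochondrial UMIs. The other of the 5 had 1.31%, and a member with 156 Malat1 UMIs per 10000 had 6.73%. The median was 2.94% in NC-Foxc2-KO and 2.44% in control members. The part of RNA quality in the Malat1, Cldn10 and Bsg values was not tested. The 3 cells of 8256, 7216 and 6704 UMIs, the deepest of which is among the 5 above, lacked at least 1 of the 6 markers that the rule did not use and held 0, 1 and 0 Car3 UMIs. Without these 3 cells 88 genes were higher and 76 lower. When every cell counted alike, 153 were higher and 126 lower.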

How the data were processed

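For each library the authors deposited UMI counts per gene and barcode, made with Cell Ranger 4.0.0 on mm10 per the submitters' processing notes, with no normalization. A table of both libraries was not used. UMIs were summed over gated cells and divided by their total (CPM), with exact Poisson intervals at 95% and exact conditional binomial (Clopper-Pearson) intervals of ratios. Called genes were at least 2-fold apart with at least 20 CPM in either group, and 3 counts stood in for a sum of 0. Precision followed the summed UMIs, 144561 in NC-Foxc2-KO and 3422027 in control members. Doublets were called with Scrublet in scanpy 1.11.5 and kept, and Python 3.11.15 and SciPy 1.17.1 were used. The 2-fold call was tested on simulated sums of counts without spread among cells, and the choice of members was not tested in this way. Members and the 25 gene lists were chosen with earlier results of these data known. Named are list genes, the 30 highest ratios of members to the highest gate at 100 CPM or more, the 10 lowest, the 10 most variable, and the 10 highest and 10 lowest between libraries. The ratio rankings left out hemoglobin, ribosomal protein, mitochondrial and Y-linked genes, Xist and Tsix. Alternatives changed the gate, scaling, filter, fold, weighting of cells and doublets. Gene positions are from GENCODE vM21 and sequences from RefSeq. Some genes that these rules name are not reported here.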

Additional observations from a re-analysis of the deposited data

How the results depend on the processing

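No paired analysis was possible because each condition has 1 library. The gate set how many cells were counted: with at least 1 Slc4a11 UMI there were 40 NC-Foxc2-KO and 227 control members, and with Car3, Npy and Col8a2 in place of Slc4a11 and Cldn10 there were 22 NC-Foxc2-KO members. Counts of genes followed the filter by construction. At a minimum of 5 CPM, 1682 genes were higher and 1603 lower than in all other cells, 2155 and 933 than in Kera cells, 1672 and 1473 than in Myoc-Chil1 cells, and 2450 were higher than in Cdh5-Pecam1 cells. At 50 CPM these were 573 and 420, 662 and 357, 510 and 517, and 893. At a 3-fold difference 426 were higher than in all other cells, 619 higher and 371 lower than in Kera cells, 398 and 544 than in Myoc-Chil1 cells, and 935 higher than in Cdh5-Pecam1 cells. Scaling also by the median gene ratio left 628 higher and 991 lower against all other cells (from 1002 and 777), and 711 higher and 795 lower against Kera cells (from 1228 and 569). After thinning, 1433 were higher than in Myoc-Chil1 cells. With each cell weighted alike, NC-Foxc2-KO members had 153 genes above and 126 below control members. The other counts stayed within 1.5 times, and the glycolysis list had 15 to 20 of 23 genes higher under weighting, thinning, median scaling and removal of doublets or red blood cells. These alternatives for lists and for NC-Foxc2-KO members were chosen after seeing the data. No UMI in the NC-Foxc2-KO members allows up to 20.8 CPM.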
